A study of Mus musculus with 6 samples.

Results

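The insulin-like growth factor (IGF) genes examined here were the 2 ligands Igf1 and Igf2, the receptors Igf1r and Igf2r, and the 6 binding protein genes Igfbp2, Igfbp3, Igfbp4, Igfbp5, Igfbp6 and Igfbp7. They were chosen by gene symbol, 10 of the 23107 genes listed, and all 10 had enough counts to be tested. Their RNA was read in aortic valve tissue of 4-month-old mice by RNA-Seq, in 3 control and 3 mutant libraries. The mutants (caAcvr1:Nfatc1Cre) carried a transgene for a constitutively active form of Acvr1, a type I receptor for bone morphogenetic proteins, which Cre switches on, and a Cre cassette knocked into the Nfatc1 locus. That driver is active in the endocardium, in valve cells derived from it and in cells at the junction of leaflet and wall, and, by the study's description, not in heart muscle or smooth muscle. The labels call the controls wild type, whereas the crosses described for the study allow controls with the transgene alone, with Nfatc1Cre alone or with neither, and which of these were sequenced is not given in the sources used here. All animals are labelled as outbred. The sex of the mice, the pooling of valves and the sequencing batch are likewise not given, and the p-values therefore measure the spread between libraries, which may be technical in part.

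IGF-1 and IGF-2 are small secreted proteins related to insulin that promote growth and survival of cells through the tyrosine kinase receptor encoded by Igf1r. The product of Igf2r, the cation-independent mannose 6-phosphate receptor, carries IGF-2 to the lysosome for breakdown and sends no growth signal of the same kind. The binding proteins hold the ligands in the extracellular space, extend their life, keep them from the receptor or release them when proteases cleave the binding protein. In connective tissue they are made mainly by mesenchymal cells and vascular smooth muscle, and several of them attach to the matrix.

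Between 46180667 and 55728852 fragments were assigned to genes in the controls, and between 32218345 and 53129462 in the mutants. Levels are given in CPM (the counts-per-million scale, which divides each count by the size of its library). Against the unscaled totals, 3 counts correspond to 0.0538 to 0.0931 CPM, for counting error only. A listed 0 need not mean that little RNA was there: Hba-a1, an alpha-globin gene, was listed at 0 in control replicate 3 and mutant replicate 3 and at 45675 to 396875 counts in the other libraries, while the erythroid gene Alas2 had 440.4 CPM in control replicate 3 and 650.3 CPM in mutant replicate 3. The tissue label was checked against marker lists: all 9 valve interstitial markers and all 6 endothelial markers were detected in every library, and so were all 8 markers of cardiac muscle and all 6 of smooth muscle. Control replicate 2 was the least like the others across genes (correlations of 0.9515 to 0.966, against 0.963 to 0.9785 among the other 5). Mutant replicate 1 stood apart in its smooth muscle signal, while its highest correlation was with control replicate 1 (0.9785). The summed level of the smooth muscle markers was highest in control replicate 2, at 13683 CPM, and lowest in mutant replicate 1, at 3788 CPM, against 6346 to 7639 CPM in the other 4 libraries. The mean log2 level of the same markers was 10.05, 10.68 and 9.88 in controls and 8.87, 9.72 and 9.84 in mutants, with no overlap. A fit with a smooth muscle score can therefore separate the score from the group only in part, and no conclusion is drawn from its values. The summed mesothelial markers were also highest in control replicate 2, at 1149 CPM against 107 to 498 CPM elsewhere, and the cardiac muscle markers were lowest there, at 11746 CPM, and highest in mutant replicate 1, at 37721 CPM, next to control replicate 3 at 36342 CPM. In bulk RNA, fewer cells of a type cannot be told apart from less RNA per cell.

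The promoters of 5 binding protein genes are shown because these genes span the range of levels found. Igfbp7, Igfbp5 and Igfbp4 were the most abundant of the family per length, and Igfbp3 and Igfbp1 are neighbours on chromosome 11, 3539 bp apart, of which Igfbp3 was read in every library and Igfbp1 was listed at 0 in all 6. The sequences are the 250 bases before the RefSeq start (GRCm38.p6), written in the direction of transcription. They lie at chr5:77408046-77408295 on the minus strand (Igfbp7), chr1:72874866-72875115 on the minus strand (Igfbp5), chr11:99040994-99041243 on the plus strand (Igfbp4), chr11:7213924-7214173 on the minus strand (Igfbp3) and chr11:7197537-7197786 on the plus strand (Igfbp1). Capitals mark matches on either strand to the TATA box letters TATAAA, to the GC box core GGGCGG or to the CCAAT box, and a match on the other strand appears as its reverse complement.
Igfbp7: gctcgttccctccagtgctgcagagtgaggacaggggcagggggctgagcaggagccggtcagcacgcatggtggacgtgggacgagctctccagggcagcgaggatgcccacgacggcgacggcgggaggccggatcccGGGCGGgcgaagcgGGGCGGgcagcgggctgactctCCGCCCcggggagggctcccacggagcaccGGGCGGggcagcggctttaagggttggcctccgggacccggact
Igfbp5: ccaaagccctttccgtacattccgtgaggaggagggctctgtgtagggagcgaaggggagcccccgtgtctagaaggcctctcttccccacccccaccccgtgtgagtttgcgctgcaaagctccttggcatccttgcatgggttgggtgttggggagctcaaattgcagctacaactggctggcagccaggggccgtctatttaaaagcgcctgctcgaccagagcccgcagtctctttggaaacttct
Igfbp4: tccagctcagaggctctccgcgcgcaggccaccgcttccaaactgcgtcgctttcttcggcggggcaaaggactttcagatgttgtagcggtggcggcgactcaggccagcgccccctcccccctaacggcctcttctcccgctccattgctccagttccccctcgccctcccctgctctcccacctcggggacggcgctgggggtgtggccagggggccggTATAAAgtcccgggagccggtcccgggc
Igfbp3: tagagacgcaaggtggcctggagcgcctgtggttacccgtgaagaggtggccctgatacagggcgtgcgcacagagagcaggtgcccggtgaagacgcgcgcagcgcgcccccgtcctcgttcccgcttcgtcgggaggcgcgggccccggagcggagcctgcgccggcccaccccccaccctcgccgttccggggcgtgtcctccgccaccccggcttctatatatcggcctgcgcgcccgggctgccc
Igfbp1: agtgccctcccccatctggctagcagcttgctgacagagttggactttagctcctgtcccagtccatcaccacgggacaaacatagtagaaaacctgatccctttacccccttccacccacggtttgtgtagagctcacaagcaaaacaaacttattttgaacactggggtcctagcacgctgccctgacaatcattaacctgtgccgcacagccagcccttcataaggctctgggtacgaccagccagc
The Igfbp7 window held 4 GGGCGG matches, 3 on the strand shown and 1 on the other, in a window of 74% G and C. The Igfbp4 window held 1 TATAAA match, which begins 28 bases before the start. None of these 3 motifs was found in the windows of Igfbp5, Igfbp3 or Igfbp1, whose G and C content was 58.8%, 73.2% and 53.2%. Over 32851 promoter windows of the same length, 12.4% held TATAAA, 32.7% held GGGCGG and 33.8% held CCAAT. A match is a description of letters, not a site shown to be used.

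Per length of transcript, the order of levels was the same for the 5 highest genes in both groups. In RPKM (CPM divided by the length of the exon union of the gene in kilobases), Igfbp7 stood at 1762 ± 400.3 (SD, n = 3) in control and 1438 ± 327 in mutant valves. Igfbp7 encodes a secreted protein with low affinity for IGFs that is common in vessel walls. It was followed by Igfbp5 (271 ± 93.9 and 240.1 ± 51.6 RPKM), Igfbp4 (213 ± 29.6 and 191 ± 28.5 RPKM) and Igfbp6 (189 ± 133 and 153 ± 59.4 RPKM), and the ranges of these 3 overlapped in each group. Igfbp3 came next, at 55.3 ± 25.1 RPKM in controls and 62.9 ± 22.6 RPKM in mutants. The ligands stood far below the abundant binding proteins. Igf2 was at 15.6 ± 4.75 RPKM in controls and 17.7 ± 7.41 RPKM in mutants, and Igf1 was at 12.7 ± 2.59 and 14.7 ± 2.35 RPKM. Igfbp2 (15.9 ± 7.39 and 9.29 ± 7.83 RPKM) and Igf2r (9.84 ± 1.41 and 9.51 ± 1.08 RPKM) lay in the same range as the ligands, and neighbours in the order of these 4 genes overlapped, except Igf1 and Igf2r in the mutants. Igf1r was the lowest, at 2.41 ± 0.484 RPKM in controls and 2.24 ± 0.0973 RPKM in mutants. With the longest transcript in place of the exon union, only Igf2r and Igfbp2 exchanged their places, in the mutants.

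The make-up of the binding protein transcripts was dominated by Igfbp7 in every library. Of the summed per-length level of the 6 binding protein genes, Igfbp7 took 69.5% ± 2.64 (SD over 6 libraries), with a range from 65.2% in mutant replicate 1 to 73.3% in control replicate 3. Igfbp5 took 11.1% ± 1.69, Igfbp4 took 8.96% ± 1.22, Igfbp6 took 7.09% ± 2.16 and Igfbp3 took 2.82% ± 1.57. Igfbp2 took 0.509% ± 0.243. The share of Igfbp7 was 70.7% ± 2.47 in controls and 68.3% ± 2.68 in mutants (n = 3 each), and these ranges overlapped. The Igfbp6 share was 10.5% in control replicate 2 and 5.25% and 5.31% in the other controls, and the Igfbp3 share ran from 1.16% in control replicate 2 to 5.42% in mutant replicate 1.

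**Figure D1:**
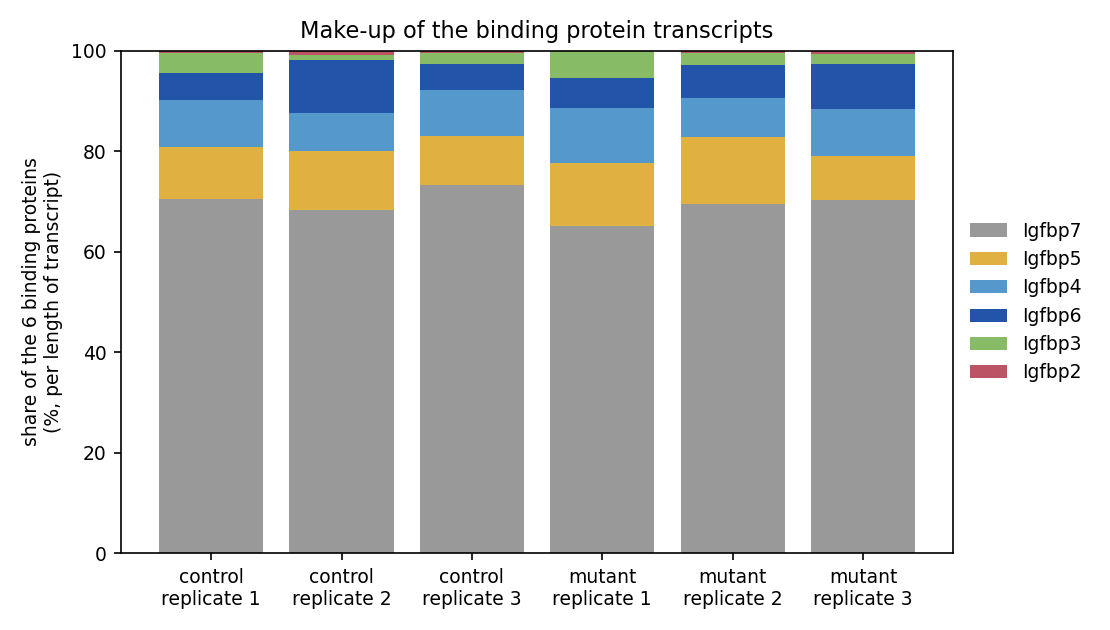
Share of each binding protein gene in the summed per-length level of the 6 genes (%, vertical axis), 1 stacked bar for each of the 3 control and 3 mutant libraries. Igfbp7 takes between 65.2% and 73.3% in all 6 bars, the Igfbp6 segment is largest in control replicate 2, and the Igfbp3 segment runs from 1.16% to 5.42%.

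The comparison of mutant with control valves asks whether the active receptor went with other levels of the IGF genes in the adult valve. None of the 10 genes was called by edgeR's quasi-likelihood test at an adjusted p under 0.05, and over all 15354 genes tested the test called 0 (0%). At an unadjusted p under 0.05 none of the 10 genes passed either, against 529 genes (3.45%) of all tested, and DESeq2 called none of the 10 at an adjusted p under 0.05, against 26 (0.169%) of the 15344 genes it adjusted. The groups overlapped for all 10 genes, whereas 1362 (8.87%) of all genes tested did not overlap. The mutant mean was higher for 3 of the 10 (Igf1, Igf2 and Igfbp3) and lower for 7, on the log2 fold scale, with a median of -0.133 beside 0.00974 over all genes tested, of which 47.8% were lower. The adjusted p by edgeR's quasi-likelihood test was 0.999 for each of the 10 genes. Among the marker lists, the macrophage sum was 649, 567 and 629.7 CPM in controls and 713, 786 and 755 CPM in mutants, with no overlap, and 7 of 7 of its genes were higher, 3 of them at an unadjusted p under 0.05. Of the 6 smooth muscle markers 5 were lower in the mutants, 3 of them without overlap. Log2 fold changes were also below 0 for 5 of 5 mesothelial (median -0.751) and 6 of 6 adipocyte markers (median -0.437). They were above 0 for 4 of 4 melanocyte (median 0.455) and 7 of 8 cardiac muscle markers (median 0.248). The groups overlapped for each gene of these mesothelial, adipocyte, melanocyte and cardiac muscle lists. The part of the macrophage genes in the IGF values was not tested. All levels below are CPM scaled with edgeR's normalization factors.

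**Figure D2:**
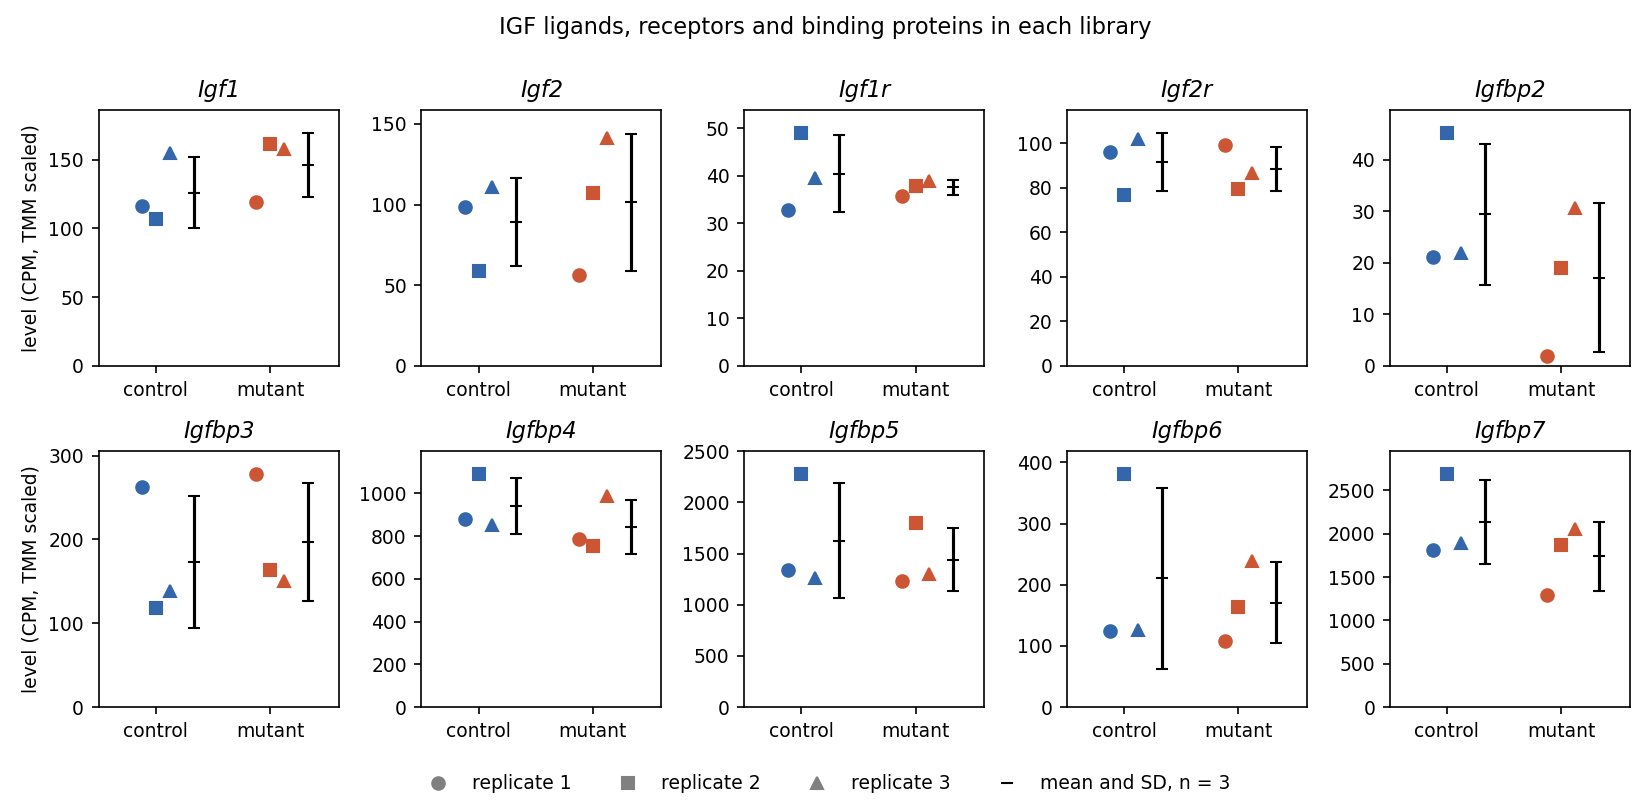
Level of each of the 10 IGF genes in the 6 libraries (vertical axes, CPM, starting at 0), with 1 point per library, its shape giving the replicate number, and the mean with SD (n = 3) beside each group. Control and mutant points overlap in every panel, and the square of control replicate 2 is the highest point for Igf1r and for every binding protein except Igfbp3.

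Igf1 was among the steadier members. It had 116, 107 and 155 CPM in control replicates 1 to 3 and 119, 161 and 158 CPM in mutant replicates 1 to 3. The lowest values were those of control replicates 2 and 1, and the groups overlapped. The means were 126 ± 25.6 CPM and 146 ± 23.3 CPM (SD, n = 3). The log2 fold change was 0.21 ± 0.18 (SE; 95% interval -0.22 to 0.64, or 0.859-fold to 1.56-fold) with an adjusted p of 0.999 in edgeR. The gene lies on chromosome 10 (87858265 to 87937042, plus strand, GRCm38). The 3 genes with the most similar pattern over the 6 libraries, among 10084 with a mean of at least 10 CPM, were E130203B14Rik, Slc35e3 and Mxd1. Their centred log2 CPM differed from that of Igf1 by 0.0565, 0.0805 and 0.0906 (root mean square).

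Igf2, an imprinted gene expressed from the paternal allele in most tissues, was at 98.3, 58.6 and 111 CPM in the controls and 56.5, 107 and 141 CPM in the mutants. Its lowest values were those of mutant replicate 1 and control replicate 2, 1 from each group. The log2 fold change was 0.19 ± 0.36 (SE; 95% interval -0.67 to 1.04), and it turned to -0.12 without mutant replicate 3 and to -0.039 without control replicate 2. The interval spans 0.63-fold to 2.06-fold. Igf2 (chromosome 7, 142650766 to 142666816, minus strand) lies 72622 bp from H19 on the same strand, a noncoding RNA transcribed from the maternal allele under the same imprinting control region. H19 had 41.2, 26.7 and 41.6 CPM in controls and 24, 36.5 and 42.6 CPM in mutants, with the same pair of libraries at the bottom. The ratio of Igf2 to H19 in CPM was 2.39, 2.2 and 2.66 in controls and 2.36, 2.94 and 3.3 in mutants, and the groups overlapped. By the likeness measure, Rerg (0.187), H19 (0.203) and Ptx3 (0.209) followed Igf2 most closely. The antisense gene Igf2as had 9 to 40 counts per library, 0.308% to 0.759% of the Igf2 count, and whether strand was used in counting is not given in the sources used here.

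The receptors were the least variable members. Igf2r had 96.1, 76.8 and 102 CPM in controls and 99.4, 79.6 and 86.6 CPM in mutants, with overlapping groups and a log2 fold change of -0.049 ± 0.14 (SE; 95% interval -0.38 to 0.28). Igf1r had 32.9, 49 and 39.5 CPM in controls and 35.8, 37.9 and 39 CPM in mutants. The control libraries held both its highest and its lowest value, and the log2 fold change was -0.11 ± 0.16 (SE; 95% interval -0.48 to 0.26). Both signs depended on single libraries: without control replicate 2 the Igf1r value was 0.056, and the Igf2r value was 0.033 without control replicate 3 and 0.022 without mutant replicate 2. Per length, Igf2r stood above Igf1r in every library, by a ratio of 5.28, 2.82 and 4.65 in controls and 5.01, 3.79 and 4 in mutants. Igf1r lies on chromosome 7 (67952827 to 68233668, plus strand) and Igf2r on chromosome 17 (12682406 to 12769664, minus strand). The antisense RNA Airn, which overlaps Igf2r, had 245 to 391 counts, 6.56% to 8.89% of the Igf2r count, and without strand the reads of the pair cannot be told apart where they overlap.

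Igfbp7 and Igfbp5 carried the highest counts of the family and shared their extremes. Igfbp7 (chromosome 5, 77349240 to 77408041, minus strand) was at 1809.8, 2687 and 1895 CPM in controls and 1293, 1874 and 2050.0 CPM in mutants. Control replicate 2 was the highest library and mutant replicate 1 the lowest, while the other 4 lay between 1809.8 and 2050.0 CPM with the groups mixed. The log2 fold change was -0.29 ± 0.27 (SE; 95% interval -0.94 to 0.35). Igfbp5, whose protein binds the matrix as well as IGFs, was at 1342, 2277 and 1263 CPM in controls and 1230.1, 1798 and 1298 CPM in mutants, again with control replicate 2 highest and mutant replicate 1 lowest. Its log2 fold change was -0.17 ± 0.30 (SE; 95% interval -0.88 to 0.53), and 0.15 without control replicate 2.

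Igfbp4, which mostly keeps IGFs from their receptor until it is cleaved, was the steadiest binding protein. It had 881, 1090.0 and 849.9 CPM in controls and 786, 755 and 987 CPM in mutants, a log2 fold change of -0.16 ± 0.19 (SE; 95% interval -0.61 to 0.29). The highest value was again in control replicate 2, and mutant replicate 3 stood above the other 2 controls. The interval spans 0.656-fold to 1.22-fold. The gene lies on chromosome 11 (99041244 to 99054392, plus strand).

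Igfbp3, which carries most of the IGF in the circulation together with the acid-labile subunit, was lowest in control replicate 2 and highest in mutant replicate 1, the libraries where Igfbp2, Igfbp5, Igfbp6 and Igfbp7 had their highest and lowest values. It had 263, 118 and 138 CPM in controls and 278, 163 and 149.9 CPM in mutants. The 2 high libraries, mutant replicate 1 and control replicate 1, came 1 from each group, and the lowest was control replicate 2. The log2 fold change was 0.19 ± 0.36 (SE; 95% interval -0.67 to 1.04), and it was 0.62 without control replicate 1 and -0.15 without mutant replicate 1. The summed melanocyte markers followed nearly the same order, at 157, 18.3 and 66.1 CPM in controls and 174, 86.6 and 56.9 CPM in mutants, with all 4 markers detected in every library. The summed cartilage markers were also highest in control replicate 1 and mutant replicate 1 and lowest in control replicate 2 (712, 259 and 417 CPM in controls, 472, 420.0 and 343 CPM in mutants), a sum made up mostly of Comp, Chad and Sox9. Acan ran the other way, from 3.53 CPM in mutant replicate 1 to 20.8 CPM in control replicate 2, Col2a1 was listed at 0 in mutant replicate 1 and Matn1 in all libraries but that one, and the mean log2 level of the list was lowest in mutant replicate 1 (3.72, against 3.78 in control replicate 2). The part of either list in the Igfbp3 values was not tested. With the cardiac muscle score as a covariate, the Igfbp3 value was 0.06, with the mesothelial score it was 0.16 and with the smooth muscle score it turned to -0.49. The last value is not read further, since the mean log2 level of the smooth muscle list was lower in every mutant. The acid-labile subunit gene Igfals itself was read at 0.314 to 2.63 CPM (10 to 136 counts).

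Igfbp6, whose protein prefers IGF-2 over IGF-1, had 124, 381 and 126 CPM in controls and 108, 164 and 239.5 CPM in mutants. Control replicate 2 stood far above the other controls, and 2 of the 3 mutants lay between it and them. The log2 fold change was -0.30 ± 0.50 (SE; 95% interval -1.48 to 0.87) over all libraries and 0.45 without control replicate 2, so that the sign rested on that library. Without control replicate 2 and mutant replicate 1, a choice made after the data were seen, the 4 libraries left gave 0.69 with an unadjusted p of 0.0102 and an adjusted p of 0.81 in edgeR. These were the highest control and the lowest mutant for Igfbp6. Leaving them out raises the value by itself, so no conclusion is drawn from this fit. The summed mesothelial markers (5 of 5 detected in every library) placed the libraries in nearly the same order as Igfbp6, with control replicate 2 highest, then mutant replicate 3, mutant replicate 2 and control replicate 3. They summed to 107, 1149 and 203 CPM in controls and 131, 355 and 498 CPM in mutants. With the mesothelial score as a covariate, the Igfbp6 value was -0.11, with an adjusted p of 0.935 in edgeR, whereas with the smooth muscle score it was 0.89 (adjusted p 0.882 in edgeR) and with the cardiac muscle score 0.13. The smooth muscle score was tied to the group, as described above, so no conclusion is drawn from the value of 0.89. Igfbp6 lies on chromosome 15 (102144362 to 102149511, plus strand).

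Igfbp2 was the most variable member. It had 21.1, 45.2 and 22 CPM in controls and 1.85, 19 and 30.6 CPM in mutants, a 24.4-fold range over the 6 libraries. Mutant replicate 1 held 96 counts against 752 to 2285 in the others, and of the other mutants 1 lay just below the lowest control and 1 among the controls. The log2 fold change was -0.79 ± 0.83 (SE; 95% interval -2.75 to 1.18), or -0.25 without mutant replicate 1 and -1.69 with limma-voom. Igfbp2 (chromosome 1, 72824503 to 72852474, plus strand) and Igfbp5 (72857932 to 72874884, minus strand) are neighbours whose 3′ ends face each other across 5457 bp, and over the same libraries Igfbp5 ranged by 1.85-fold. Mutant replicate 1 also held the lowest smooth muscle sum, 3788 CPM. With the smooth muscle score as a covariate, the Igfbp2 value was 0.74, with an adjusted p of 0.892 in edgeR, whereas it was -0.98 with the mesothelial score and -0.58 with the cardiac muscle score. The value of 0.74 is not read as an adjusted effect, since the smooth muscle score was tied to the group.

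**Figure D3:**
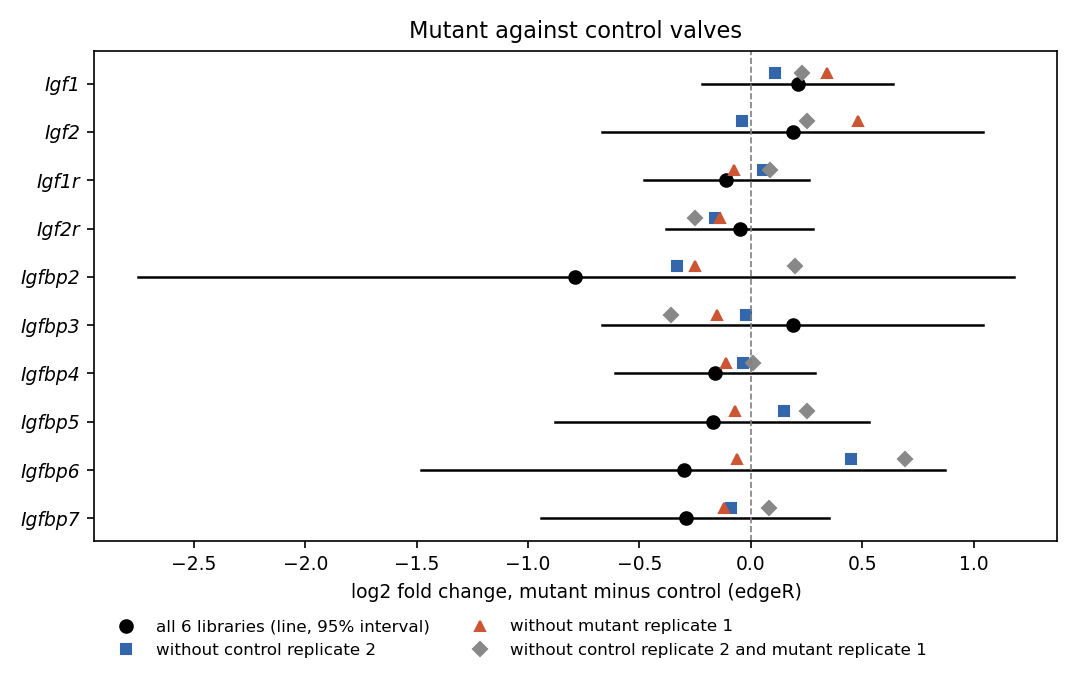
Log2 fold change of each IGF gene, mutant minus control (horizontal axis), with its 95% interval over all 6 libraries (black point and line) and the values without control replicate 2, without mutant replicate 1 and without both (colored marks). All 10 intervals include 0, the Igfbp2 interval is the widest, from -2.75 to 1.18, and the marks for Igfbp6 lie on both sides of 0.

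The spread over libraries, set beside that of other genes of at least 10 CPM, separated the members. The SD of log2 CPM over the 6 libraries was 1.61 for Igfbp2, larger than that of 99.8% of the 10085 genes. It was 0.695 for Igfbp6 (96.8%), 0.533 for Igf2 (93.4%) and 0.509 for Igfbp3 (92.6%). Igfbp5 (0.359, 84.5%) and Igfbp7 (0.339, 82.8%) came next, followed by Igf1 (0.264, 72.9%). Igfbp4 (0.2, 58.5%), Igf1r (0.193, 56.2%) and Igf2r (0.172, 48.6%) lay near the middle of all genes. The 5 members Igf1r, Igfbp4, Igfbp5, Igfbp6 and Igfbp7, together with Igfbp2, were all highest in control replicate 2, the library with the most smooth muscle and mesothelial signal and the least cardiac muscle signal. That library was also the highest for the summed endothelial (2125 CPM against 1303 to 1756 CPM), adipocyte (503 CPM against 246 to 403 CPM) and Schwann cell markers (63.4 CPM against 28.8 to 48.3 CPM). By mean log2 level it was still highest for the endothelial list (8.12). It was not for the adipocyte list (3.72, against 4.11 in mutant replicate 3 and 4.08 in control replicate 1) or the Schwann cell list (3.08, against 3.13 in mutant replicate 3). Igfbp2, Igfbp5, Igfbp6 and Igfbp7 were all lowest in mutant replicate 1, the library with the least smooth muscle signal. It was also the lowest for the summed valve interstitial markers, at 13586 CPM against 15400.1 to 17836 CPM elsewhere. Without control replicate 2 and mutant replicate 1, the log2 fold change was 0.20 for Igfbp2, 0.25 for Igfbp5 and 0.083 for Igfbp7. Each had the opposite sign to the value over 6 libraries. That choice removes the highest control and the lowest mutant of Igfbp2, Igfbp5, Igfbp6 and Igfbp7. It raises their values by itself, so no conclusion is drawn from the change of sign. The value was 0.0098 for Igfbp4 and 0.087 for Igf1r. Of the members, Igf1r and Igfbp4 had the most similar patterns (root mean square difference 0.145), then Igfbp4 and Igfbp7 (0.2) and Igf1r and Igfbp7 (0.208). Beyond these values, the part of the cell types in the IGF values was not tested.

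The summed per-length level of the 6 binding protein genes was 73.6, 155 and 61.2 times that of the 2 ligands in controls and 74.8, 63.7 and 59.5 times in mutants. Control replicate 2, which was highest for the binding proteins and lowest for the ligands, stood apart, and the other 5 libraries lay between 59.5 and 74.8. Without Igfbp7, whose affinity for IGFs is low, the ratio was 21.8, 49 and 16.4 in controls and 26, 19.4 and 17.7 in mutants. The ratio of Igf1 to Igf2 was 0.682, 1.05 and 0.811 in controls and 1.22, 0.866 and 0.65 in mutants. The groups overlapped for each of these ratios. All of them rest on the exon union and were not tested with the longest transcript. That length is 7052 instead of 9904 bp for Igf1 and 4722 instead of 5723 bp for Igf2, but 1200 instead of 1209 bp for Igfbp7. The sizes of the ratios therefore depend on the choice of length.

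The wider IGF pathway was read from a list of 33 further genes, of which 31 were tested. On the log2 fold scale 15 were higher and 16 lower in the mutants, with a median of -0.0181, and none passed an adjusted p under 0.05 in edgeR or in DESeq2. At an unadjusted p under 0.05 there was 1 gene, Adam12, which was lower. Of all genes tested 1.86% were lower and 1.59% higher by that rule. The groups did not overlap for 2 genes, Adam12 and Shc1, both lower, and of all genes tested 4.83% were apart and lower and 4.04% apart and higher. Adam12, a metalloprotease that can cleave Igfbp3 and Igfbp5, was at 1.92, 1.42 and 1.83 CPM in controls and 0.656, 1.01 and 0.722 CPM in mutants, with 23 to 103 counts per library. All mutants lay below all controls. Its log2 fold change was -1.11 ± 0.35 (SE; 95% interval -1.95 to -0.27, or 0.259-fold to 0.827-fold), with an unadjusted p of 0.0165 and an adjusted p of 0.999 in edgeR and of 0.407 in DESeq2. The exact two-sided permutation test gave p = 0.1, the smallest that 3 libraries against 3 allow. The unadjusted p was 0.0537 without control replicate 1 and 0.0508 without mutant replicate 1. Shc1, an adaptor that couples the receptor to Ras, was at 185, 213 and 189 CPM in controls and 170.1, 181 and 140.1 CPM in mutants, a log2 fold change of -0.26 ± 0.13 (SE; 95% interval -0.57 to 0.05), and its exact permutation p was also 0.1.

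By role, the list was counted without a test of its own, and for each role the gene with the highest CPM, which is not corrected for length, is given. Of the 10 receptor and adaptor genes 6 were higher and 4 lower, and the kinase gene Akt1 stood at 399 ± 35.8 CPM in controls and 399 ± 14 CPM in mutants (n = 3). Of the 7 proteases and protease inhibitors 2 were higher and 5 lower, with a median of -0.232. Htra1, a secreted serine protease that cleaves binding proteins, was at 281 ± 31 and 239.7 ± 41.9 CPM, a log2 fold change of -0.23 ± 0.16 (SE). Ghr, the growth hormone receptor that drives Igf1 in liver, was at 177 ± 15.4 and 193 ± 15.8 CPM, and of the 3 genes of its arm 1 was higher and 2 lower. Of the 3 Igf2 mRNA-binding protein genes 2 were higher and 1 lower, and Igf2bp2 was at 7.85 ± 1.64 and 9.74 ± 2.17 CPM. Both tested genes among the other carrier proteins were higher, and Igfals was at 1.79 ± 0.71 and 1.82 ± 1.3 CPM. Furin, a convertase that processes pro-IGF1R, was at 178 ± 11.4 and 197 ± 17.5 CPM. M6pr, the other mannose 6-phosphate receptor, was at 135 ± 10.6 and 126 ± 8.77 CPM, and the transcription factor gene Foxo1, which AKT restrains, was at 136 ± 9.39 and 133 ± 8.6 CPM. The groups of all these genes overlapped. Of the genes not tested, Igfbp1 was listed at 0 in every library, from which no upper limit is drawn, and Ins2 had 2 counts in control replicate 2 and 2 in mutant replicate 1 and was listed at 0 elsewhere.

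The imprinted genes, many of which are expressed with Igf2 in growing tissue, were counted as a second list. All 14 were tested, 6 were higher and 8 lower in the mutants, and the median log2 fold change was -0.0432. None passed an adjusted p or an unadjusted p under 0.05 in edgeR, DESeq2 adjusted p values were above the threshold for all 14, and the groups overlapped for each. The highest in CPM was Dcn, which encodes the matrix proteoglycan decorin, at 4718 ± 821 CPM in controls and 5847 ± 883 CPM in mutants, a log2 fold change of 0.31 ± 0.29 (SE). Dcn is also among the valve interstitial markers, and whether it or the other listed genes were imprinted in this tissue was not tested.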

How the data were processed

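Aortic valve RNA was sequenced from 3 control and 3 mutant libraries. The authors aligned the reads to mm10 and the deposited values are estimated counts per gene from Cuffdiff, not scaled for library size. The submitters' processing notes name TopHat2 2.0.13, Bowtie2 2.2.1 and Cuffdiff 2.1.1. Values that were not whole (1.66% to 1.87% in a library) were rounded.

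The 15354 genes that reached 10 counts in 3 or more libraries were tested in R 4.3.3 with edgeR 4.0.16 (TMM normalization, quasi-likelihood F test, mutants against controls, no covariates), with Benjamini-Hochberg adjustment over all of them. The SE is the size of the log2 fold change divided by the root of F. The common biological coefficient of variation was 0.278. DESeq2 1.42.0 and limma 3.58.1 served as alternatives. Scripts were tested on simulated data. Of the gene symbols, 97.8% were matched to GENCODE M21 (GRCm38) for positions and lengths. CPM do not correct for length, so levels of the 10 IGF genes were compared with each other only per length, and the gene named for a role is the one with the highest CPM.

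The IGF genes and all lists were chosen with earlier results of these data known, and the lists are not independent support. Besides the 10 IGF genes, a gene of the wider or imprinted list was named if its groups did not overlap, if its unadjusted p was under 0.05, if it was not tested, or if it had the highest CPM of its role, with M6pr as a role of its own. H19 was described with Igf2 as its neighbour. Alternatives with smooth muscle or mesothelial scores as covariates, and without control replicate 2 and mutant replicate 1, were added after seeing the data, as was the recount of the wider list under every setting.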

Additional observations from a re-analysis of the deposited data

How the results depend on the processing

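Of 180 log2 fold changes (10 IGF genes, 18 alternatives), 154 kept their sign, none passed an adjusted p under 0.05 and the lowest adjusted p was 0.81 (edgeR); 26 reversed, in every member except Igf1. The cause was not tested. Leaving out 1 library gave -0.12 to 0.48 for Igf2 (including -0.039), -0.24 to 0.056 for Igf1r, -0.16 to 0.033 for Igf2r (including 0.022), -0.15 to 0.62 for Igfbp3 (including -0.023), -0.36 to 0.15 for Igfbp5 and -0.63 to 0.45 for Igfbp6, and, with no change of sign, 0.11 to 0.39 for Igf1, -1.50 to -0.25 for Igfbp2, -0.29 to -0.035 for Igfbp4 and -0.43 to -0.088 for Igfbp7. Igfbp2 was -1.69 with limma-voom. With the smooth muscle score as a covariate, Igf1r was 0.10, Igfbp2 0.74, Igfbp3 -0.49, Igfbp4 0.066, Igfbp5 0.32, Igfbp6 0.89 and Igfbp7 0.20. Igf2r was -0.31, against -0.049 without a covariate. In that fit 2 members, Igfbp6 and Igf2r, had an unadjusted p under 0.05 (0.0341 and 0.0469, edgeR). Every mutant lay below every control in the mean log2 level of the smooth muscle list, so no conclusion is drawn from these values. Without control replicate 2 and mutant replicate 1, Igf1r was 0.087, Igf2r -0.25, Igfbp2 0.20, Igfbp3 -0.36, Igfbp4 0.0098, Igfbp5 0.25, Igfbp6 0.69 and Igfbp7 0.083, and 1 member, Igfbp6, had an unadjusted p under 0.05. For Igfbp2, Igfbp5, Igfbp6 and Igfbp7 this choice removes the highest control and the lowest mutant, so their higher values follow from the choice itself. With limma-voom sample quality weights, Igfbp5 was 0.035 and Igfbp6 0.30, and with the cardiac muscle score Igfbp6 was 0.13. DESeq2 called 26 genes, none of them a member, and edgeR called 0. The number of genes at an unadjusted p under 0.05, 529 over all libraries, was 423 to 621 without 1 library, 816 with the smooth muscle score, 956 with the mesothelial score and 900 without both libraries. Of the wider IGF list 1 gene passed that threshold, against 0 at a mean count of at least 100 (where Adam12 was not tested), 3 with the smooth muscle score, 3 without both libraries, and 0 to 2 without 1 library. Adam12 was not among the 3 in either case (unadjusted p of 0.0757 and 0.0544, edgeR), with values of -1.10 and -1.11. Fitting the replicate number as a block gave 814 genes and 3 of the wider list at an unadjusted p under 0.05 (Adam12, Shc1 and Socs2, the last named after its value was seen), and 0 genes at an adjusted p under 0.05, and Igfbp2 was -1.34. Libraries with the same number correlated by 0.289, 0.0822 and 0.0313, not every library correlated best with its own number, and the numbers were not taken as pairs. Under TMM, upper-quartile and DESeq2 scaling the median log2 fold change of all genes was 0.0097, 0.019 and 0.01.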
